A study of Arabidopsis thaliana with 12 samples.

Results

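The 44 genes described here are the core of the nuclear auxin pathway of Arabidopsis thaliana: 2 aminotransferases and 5 YUC flavin monooxygenases that make auxin, 6 GH3 enzymes that conjugate it, 4 TIR1/AFB receptors, 25 Aux/IAA repressors and the auxin response factors ARF7 and ARF19. They were chosen by gene identifier from 33557 genes, by a rule that uses no measured value. The list was drawn up with earlier results of these data known, so the choice was not blind to them. All 44 were found in each of the 4 deposited gene tables. RNA was sequenced from root tips of about 1 cm, cut 24 h after seedlings grown for 8 days had been moved onto half-strength MS (Murashige and Skoog) medium without or with NaCl. The 12 samples form 4 groups of 3, which are wild type (WT) on MS, WT on NaCl, line 6-6 on MS and line 6-6 on NaCl. The labels do not state an ecotype, the NaCl concentration, or what 6-6 is (an allele, a transgene or a clone), while the title of the series is about ITPK4. The protocol for RNA extraction speaks of seedlings rather than root tips.

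Auxin (indole-3-acetic acid) is made from tryptophan in a pair of steps, a transamination by TAA1 and TAR enzymes and an oxidation by YUC enzymes. It binds TIR1/AFB F-box proteins together with an Aux/IAA protein, which is then ubiquitinated and degraded, and this frees ARF transcription factors to act on their targets. Many Aux/IAA and GH3 genes are themselves auxin-induced, so they form a negative feedback in which GH3 enzymes inactivate auxin by joining it to amino acids. In the root tip, auxin sets the position of the stem cell niche, the rate of growth and the spacing of lateral roots.

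The Aux/IAA proteins are recognised through a short degron whose core is glycine, tryptophan, proline, proline. Translated from the RefSeq coding sequences (TAIR10.1), this core was found in 22 of the 25 Aux/IAA genes and in 34 of 27415 coding sequences overall (0.124%). IAA20, IAA30 and IAA31 lacked it. The coding strand around the core is shown for 4 genes chosen after their values were seen, namely the repressor with the highest level (IAA9), the abundant repressor that fell in both lines (IAA28), and one that fell in both lines (IAA14) and one that rose in 6-6 (IAA27). Each line runs 5′ to 3′, capitals mark the 4 codons of the core, and exons are joined where an intron lies inside the given span.

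IAA9 (chr5:26255003-26255139, plus strand): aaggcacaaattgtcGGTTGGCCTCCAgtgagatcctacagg
IAA14 (chr4:8349472-8349704, minus strand): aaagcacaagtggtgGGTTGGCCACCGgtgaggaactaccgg
IAA27 (chr4:14324648-14324793, minus strand): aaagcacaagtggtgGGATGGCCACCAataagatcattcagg
IAA28 (chr5:9033806-9033847, plus strand): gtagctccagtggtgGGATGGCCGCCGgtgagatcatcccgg

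The 4 cores code for the same residues. As the capitals show, TGG is the same in all 4, while the other codons differ in the last letter between some genes. In WT on MS, the 22 genes with the core had levels from 0.393 to 307 FPKM (median 13.3), and the 3 without it had levels from 0.687 to 5.16 FPKM (median 2.10). FPKM counts fragments relative to transcript length and to the size of the library, so levels of different genes can be set side by side.

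ARF proteins bind the auxin response element, and the letters TGTCTC and TGTCGG, which share their first 4 letters, were searched on both strands in the 250 bases before each RefSeq gene start. At least 1 of them was present for 16 of the 44 genes (36.4%), against 14.7% of 27438 protein-coding genes. TGTCTC was present for 22.7% of the 44 genes against 10.9% of all, and TGTCGG for 18.2% against 4.16%. The 250 bases are shown for 4 genes on which the results turn, again chosen after their values were seen: GH3.2 with the largest rise on salt, GH3.3 with the only call between lines on MS, and IAA27 and IAA28, which moved in opposite directions on salt in 6-6. Each is read on the gene's own strand (TAIR10.1), with the letters searched for in capitals.

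GH3.2 (chr4:17579368-17579617, plus strand): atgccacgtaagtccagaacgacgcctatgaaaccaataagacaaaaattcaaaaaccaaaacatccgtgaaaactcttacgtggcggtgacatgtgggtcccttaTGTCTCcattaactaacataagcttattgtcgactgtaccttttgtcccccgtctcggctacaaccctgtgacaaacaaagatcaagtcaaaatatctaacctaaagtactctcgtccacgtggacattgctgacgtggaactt
GH3.3 (chr2:9866563-9866812, minus strand): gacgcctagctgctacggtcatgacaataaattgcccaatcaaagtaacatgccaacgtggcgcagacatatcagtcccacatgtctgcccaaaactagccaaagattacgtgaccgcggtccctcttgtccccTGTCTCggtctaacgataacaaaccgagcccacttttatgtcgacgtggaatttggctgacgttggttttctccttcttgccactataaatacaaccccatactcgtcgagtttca
IAA27 (chr4:14325362-14325611, minus strand): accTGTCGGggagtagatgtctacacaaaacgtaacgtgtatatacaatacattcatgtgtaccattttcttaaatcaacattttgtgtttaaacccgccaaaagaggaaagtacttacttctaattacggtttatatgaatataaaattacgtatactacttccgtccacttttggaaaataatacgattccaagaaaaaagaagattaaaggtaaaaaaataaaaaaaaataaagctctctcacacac
IAA28 (chr5:9032954-9033203, plus strand): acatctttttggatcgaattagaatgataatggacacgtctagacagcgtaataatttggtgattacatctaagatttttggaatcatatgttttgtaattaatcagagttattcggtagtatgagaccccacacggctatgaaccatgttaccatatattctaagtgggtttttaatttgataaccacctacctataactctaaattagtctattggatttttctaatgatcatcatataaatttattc

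GH3.2 and GH3.3 each held TGTCTC, IAA27 held TGTCGG, and neither run of letters occurred in the window of IAA28. Members with and without the letters were called in both directions in 6-6 on salt: of 14 tested with them 2 were higher and 3 lower, and of 26 tested without them 8 were higher and 5 lower. In WT on salt the counts were 1 higher and 1 lower of 16 with the letters, and 8 higher and 6 lower of 27 without. Of all genes tested, 24.1% were called in 6-6 and 21.8% in WT, and the difference between members with and without the letters was not tested.

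Each deposited table compares 1 pair of groups and holds 1 FPKM per group, with the authors' p-value and q-value. No value per sample was used, so no level has a spread between replicates, and sequencing depth is unknown. A gene is called, and said to rise or fall, where the authors' q-value is below 0.05, and log2 values are ratios of the 2 group FPKM. Nothing in the labels says that replicates were grown separately, so the authors' p-values may measure technical spread only. In whole root tips, fewer cells of a type and less RNA per cell cannot be told apart.

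ITPK4, the inositol phosphate kinase of the series title, was at 24.9 FPKM in WT and 2.95 in 6-6 on MS, and at 27.7 and 2.75 on NaCl. The log2 ratios were -3.08 and -3.33, with q = 0.00396 and q = 0.00186 in the authors' deposited table of each medium, so the gene was lower in the line on both. All 9 root markers examined were expressed, from 2.01 FPKM for WOX5 to 340.3 FPKM for CASP1, and the flower markers LFY, AP1 and AG were at or near 0, at 0.0634 FPKM or less. The green-tissue markers LHCB1.3 and RBCS1A both rose with salt, their summed level going from 46.9 to 157 FPKM in WT and from 28.4 to 87.4 FPKM in 6-6. Both were lower in 6-6 than in WT on MS, with summed levels of 28.0 FPKM in 6-6 and 45.9 FPKM in WT, and on NaCl LHCB1.3 was lower. Among the root markers, salt raised EXPA7 and WOX5 and lowered CASP1 and PLT1 in WT, and raised EXPA7, RHS14 and WOX5 and lowered CASP1 and SMB in 6-6, with summed levels of 584 and 539 FPKM in WT and 550.1 and 509 FPKM in 6-6. On NaCl, RHS14 and WOX5 were higher and SMB lower in 6-6 than in WT, and on MS none of the 9 was called. The part of any of these markers in the results below was not tested.

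In WT on MS, levels within the Aux/IAA family reached both below and above those of all other members. IAA9, IAA16, IAA17 and IAA28 had the highest levels in all 4 groups and together held 68.9% of the summed Aux/IAA FPKM in WT on MS, 65.9% in WT on NaCl, 68.9% in 6-6 on MS and 64.7% in 6-6 on NaCl. The sums themselves were 1310.3, 1353, 1257 and 1211 FPKM in the same order. The tables of the 2 lines were scaled separately, so small differences between lines in these sums and levels cannot be told apart from scaling. At the other end, 4 of the 25 genes in WT on MS were below 1 FPKM, namely IAA5, IAA6, IAA20 and IAA29, and 3 of these could not be tested in at least 1 table.

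**Figure D1:**
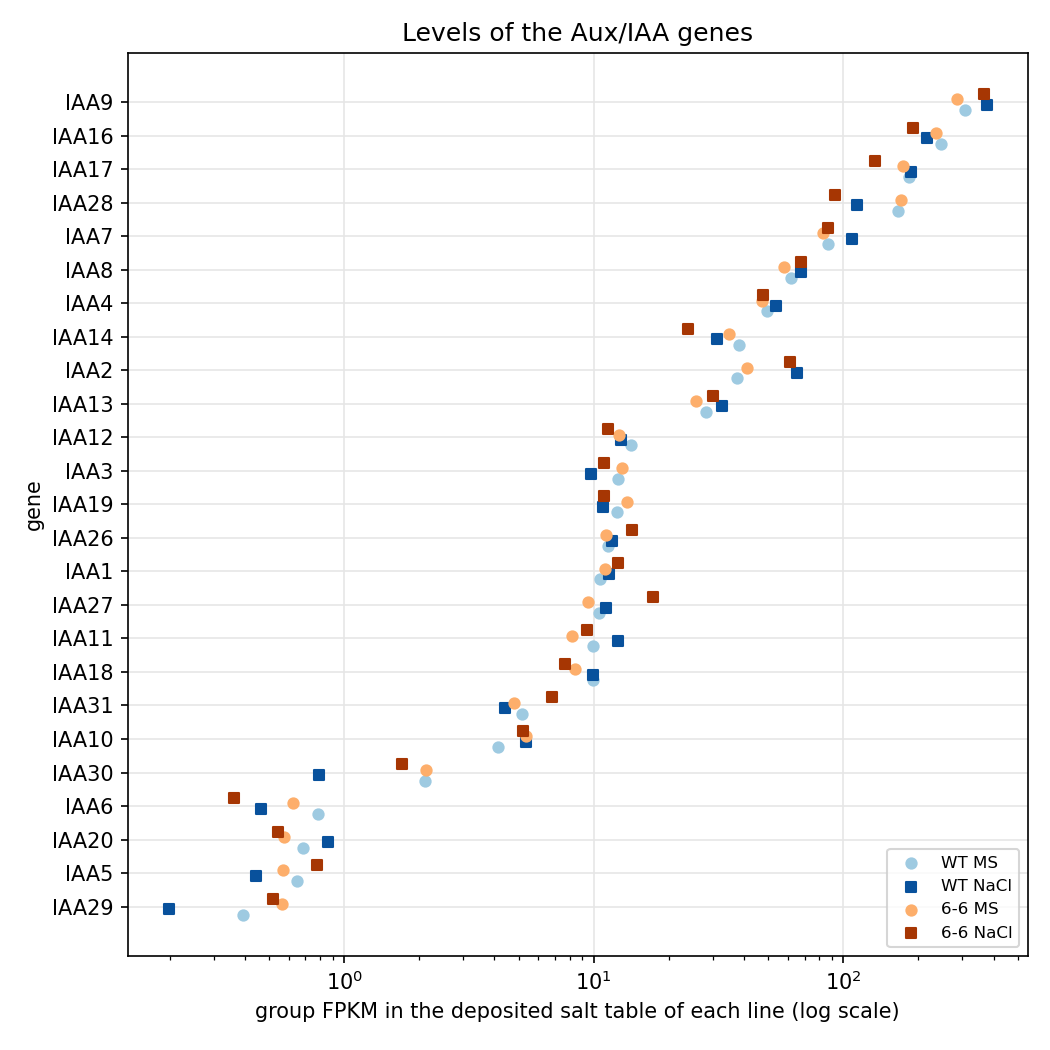
Group FPKM of the 25 Aux/IAA genes on a logarithmic axis, with 1 point per group taken from the salt table of each line. IAA9, IAA16, IAA17 and IAA28 lie highest in all 4 groups, and IAA5, IAA6, IAA20 and IAA29 lie below 1 FPKM in WT on MS.

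Among the other members, the receptors AFB1, AFB2 and TIR1 had the highest levels in WT on MS, at 94.1, 53.7 and 41.3 FPKM, and AFB3 was at 23.0. GH3.17 was the most abundant conjugating enzyme at 39.5 FPKM and GH3.1 the least abundant at 2.88. TAA1 and YUC3 led the biosynthetic genes at 14.2 and 14.1 FPKM, while YUC7 stayed below 1 FPKM in all 4 groups. ARF7 was at 15.9 FPKM and ARF19 at 6.96.

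**Figure D2:**
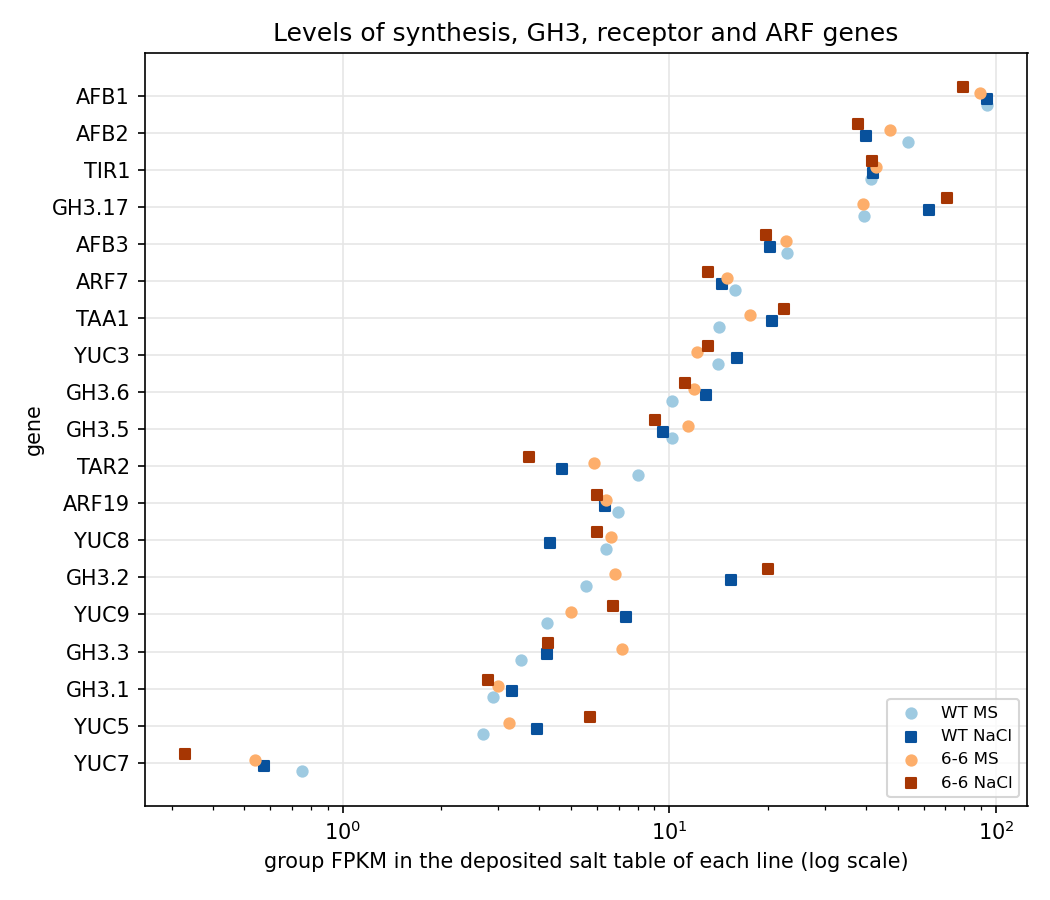
Group FPKM of the biosynthetic, GH3, receptor and ARF genes on a logarithmic axis, with 1 point per group from the salt table of each line. GH3.2 and GH3.17 lie to the right on NaCl in both lines, TAR2 lies to the left, and GH3.3 stands apart in 6-6 on MS at 7.15 FPKM.

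The first comparison asks how salt changed these genes in WT. Salt raised 9 members and lowered 7 of the 43 that could be tested, so that 16 were called (37.2%). The rises took in biosynthesis (TAA1, YUC5, YUC9), conjugation (GH3.2, GH3.6, GH3.17) and the repressors IAA2, IAA7 and IAA9. The falls took in TAR2, YUC8, the receptor AFB2 and the repressors IAA3, IAA14, IAA28 and IAA30. Of all 19798 genes tested, 21.8% were called (11.3% higher and 10.5% lower). The median log2 ratio was 0.03 for the members and 0.01 for all genes tested, and the difference between the 2 shares called was not tested.

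In the biosynthetic steps, the members of each family moved in different directions. TAA1, the aminotransferase of the first step (AT1G70560), went from 14.2 FPKM on MS to 20.6 on NaCl (log2 0.54, q = 0.000482 in the authors' deposited table). Its relative TAR2 (AT4G24670) went the other way, from 8.05 to 4.70 FPKM (log2 -0.77, q = 0.000482 in the authors' deposited table). TAR2 was thus below TAA1 on both media, and the gap was wider on salt. Of the YUC genes, which carry out the second step, YUC9 (AT1G04180) rose from 4.22 to 7.37 FPKM, a log2 ratio of 0.81 with q = 0.000482 in the authors' deposited table. YUC5 (AT5G43890) rose from 2.70 to 3.95 FPKM (log2 0.55), close to the threshold at q = 0.0479 in the authors' deposited table. YUC8 (AT4G28720) fell from 6.39 to 4.32 FPKM (log2 -0.56, q = 0.00244 in the authors' deposited table). YUC9, the lower of YUC8 and YUC9 on MS, was therefore the higher of the pair on NaCl. YUC3 and YUC7 were not called, at log2 0.20 and -0.39.

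Among the GH3 enzymes, GH3.2 (AT4G37390), which conjugates auxin to amino acids, had the largest rise of any member, from 5.55 to 15.5 FPKM (log2 1.48, q = 0.000482 in the authors' deposited table). GH3.17 (AT1G28130), which conjugates auxin to glutamate, rose from 39.5 to 62.3 FPKM (log2 0.66, q = 0.000482 in the authors' deposited table). GH3.6 (AT5G54510), another auxin-conjugating enzyme, rose by a smaller ratio, from 10.2 to 12.9 FPKM (log2 0.34, q = 0.02 in the authors' deposited table). The 3 remaining genes were not called, with log2 ratios of 0.19 for GH3.1, 0.26 for GH3.3 and -0.09 for GH3.5. The summed level of the 6 genes was 71.9 FPKM on MS and 108 FPKM on NaCl.

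Of the receptors, AFB2 (AT3G26810) fell from 53.7 to 39.9 FPKM (log2 -0.43, q = 0.000912 in the authors' deposited table). TIR1, AFB1 and AFB3 were not called, at log2 0.03, 0.00 and -0.17. AFB1 and AFB3 each share a locus in the tables with another gene, so reads may be split between neighbours, and the same holds for ARF7 and IAA13. ARF7 and ARF19, the activating ARFs of lateral root formation, were not called in any of the 4 tables, with log2 ratios between -0.20 and -0.07.

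Within the Aux/IAA family, 3 genes rose and 4 fell of 24 tested. IAA2 (AT3G23030) rose most, from 37.3 to 65.1 FPKM (log2 0.80, q = 0.000482 in the authors' deposited table). IAA9 (AT5G65670), the most abundant, rose from 307 to 375 FPKM (log2 0.29, q = 0.0357 in the authors' deposited table). IAA7 (AT3G23050), the AXR2 repressor, rose from 87.1 to 108 FPKM (log2 0.31, q = 0.0172 in the authors' deposited table). IAA2 thus had the largest of the 3 ratios, and IAA7 and IAA9 rose by small ratios at high levels. IAA28 (AT5G25890), a repressor with a known role early in lateral root formation, fell from 166 to 113 FPKM (log2 -0.55, q = 0.000482 in the authors' deposited table). IAA14 (AT4G14550), the SLR repressor of lateral root initiation, fell from 38.4 to 31.3 FPKM (log2 -0.30, q = 0.039 in the authors' deposited table). IAA3 (AT1G04240), the SHY2 repressor that acts in root meristem size, fell from 12.5 to 9.74 FPKM (log2 -0.36, q = 0.0308 in the authors' deposited table). IAA30 (AT3G62100), one of the genes without the degron core, fell from 2.10 to 0.796 FPKM (log2 -1.40, q = 0.0114 in the authors' deposited table). IAA30 thus had the largest fall of any tested member at one of the lower levels.

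The second comparison is the same change of medium in line 6-6. Salt raised 10 members and lowered 8 of the 40 that could be tested, so that 18 were called (45%). TAA1, YUC5, YUC9, GH3.2, GH3.17, IAA2 and IAA9 rose, as they had in WT, and IAA26, IAA27 and IAA31 also rose. IAA14, IAA28, AFB2 and TAR2 fell, as in WT, and IAA16, IAA17, GH3.3 and GH3.5 also fell. Of all 19705 genes tested, 24.1% were called (13.7% higher and 10.4% lower), and the median log2 ratio was -0.07 for the members and 0.03 for all genes tested.

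GH3.2 again had the largest ratio, from 6.84 FPKM on MS to 20.1 on NaCl (log2 1.56, q = 0.000441 in the authors' deposited table). GH3.17 went from 39.3 to 70.8 FPKM (log2 0.85, q = 0.000441 in the authors' deposited table). GH3.3 (AT2G23170), a close relative of GH3.2 that also conjugates auxin to amino acids, went the other way, from 7.15 to 4.26 FPKM (log2 -0.75, q = 0.000441 in the authors' deposited table). In 6-6, GH3.2 and GH3.3 were thus at nearly the same level on MS and far apart on NaCl. GH3.5 (AT4G27260), also a conjugating enzyme, fell from 11.4 to 9.02 FPKM (log2 -0.34, q = 0.0274 in the authors' deposited table). The summed GH3 level was 79.6 FPKM on MS and 118 FPKM on NaCl.

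TAA1 rose from 17.6 to 22.4 FPKM (log2 0.35, q = 0.0171 in the authors' deposited table). TAR2 fell from 5.90 to 3.73 FPKM (log2 -0.66, q = 0.000441 in the authors' deposited table). YUC5 rose from 3.23 to 5.71 FPKM (log2 0.82, q = 0.00221 in the authors' deposited table). The aminotransferases and YUC5 therefore kept the directions they had in WT. YUC9 rose from 4.99 to 6.73 FPKM (log2 0.43), near the threshold at q = 0.0425 in the authors' deposited table. YUC8 was not called, at 6.64 FPKM on MS and 6.01 on NaCl (log2 -0.14). AFB2 fell from 47.3 to 37.9 FPKM (log2 -0.32, q = 0.0224 in the authors' deposited table).

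Among the 22 Aux/IAA genes tested, 5 rose and 4 fell. IAA27 (AT4G29080), a repressor named PAP2 in the tables, had the largest rise in the family, from 9.50 to 17.2 FPKM (log2 0.86, q = 0.000441 in the authors' deposited table). IAA2 rose from 41.0 to 61.2 FPKM (log2 0.58, q = 0.000441 in the authors' deposited table). IAA31 (AT3G17600), one of the members without the full core, rose from 4.77 to 6.80 FPKM (log2 0.51, q = 0.0319 in the authors' deposited table). IAA9 and IAA26 rose by smaller ratios. IAA9 went from 286 to 367 FPKM (log2 0.36, q = 0.0138 in the authors' deposited table). IAA26 (AT3G16500), named PAP1 in the tables, went from 11.2 to 14.3 FPKM (log2 0.35, q = 0.0184 in the authors' deposited table).

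Of the 4 genes that fell, IAA28 fell most, from 170.4 to 92.6 FPKM (log2 -0.88, q = 0.000441 in the authors' deposited table). IAA14 fell from 34.9 to 23.9 FPKM (log2 -0.55, q = 0.000441 in the authors' deposited table). IAA17 (AT1G04250), the AXR3 repressor, fell from 174 to 134 FPKM (log2 -0.37, q = 0.00285 in the authors' deposited table). With IAA28, IAA16 and IAA17, 3 of the 4 most abundant repressors fell, while the fourth, IAA9, rose. IAA16 (AT3G04730), an abundant relative of IAA14 and IAA17, fell from 236 to 190.3 FPKM (log2 -0.31, q = 0.027 in the authors' deposited table).

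**Figure D3:**
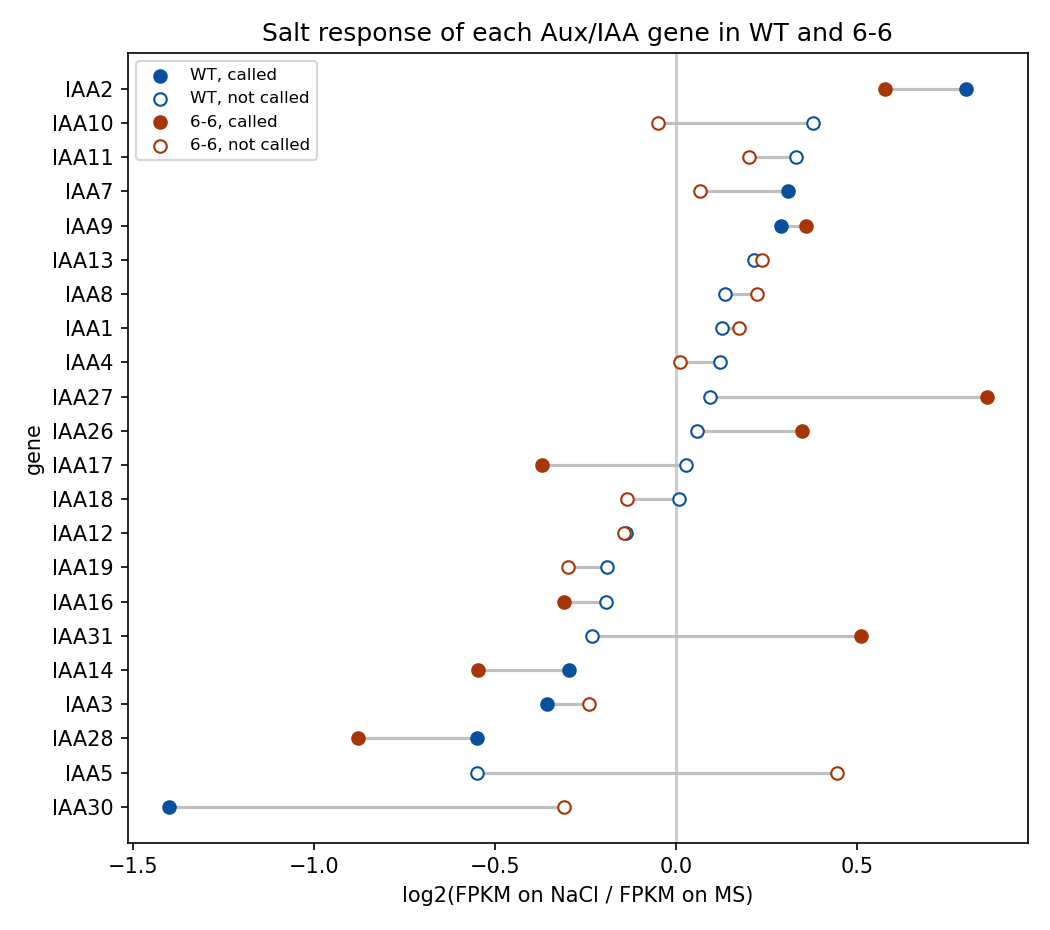
Salt response of the 22 Aux/IAA genes tested in both lines, as log2 of FPKM on NaCl over FPKM on MS, with WT and 6-6 joined by a grey bar and filled points for called values. IAA2 and IAA9 are filled to the right of 0 and IAA14 and IAA28 to the left in both lines, while IAA27 is filled at 0.86 in 6-6 and open at 0.09 in WT.

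Set side by side, 11 members were called in both lines in the same direction, 5 in WT alone and 7 in 6-6 alone, and 0 were called in opposite directions. The 11 make up 68.8% of the 16 calls in WT and 61.1% of the 18 in 6-6. Among all 19479 genes tested in both lines, 2892 were called in both in the same direction, which is 67.9% of the calls in WT and 61.8% of those in 6-6, and 19 in opposite directions. The salt tables of the 2 lines hold no sample in common. Over the 40 members tested in both, the log2 ratios had Pearson's r = 0.67 and Spearman's rho = 0.63, and 31 (77.5%) had the same sign. Over all 19479 genes tested in both, r was 0.80, rho 0.67 and the share with the same sign 73.7%. The points are genes of the same 4 groups of libraries, so they are not independent. The median absolute difference between the lines was 0.18 log2 units for the members and 0.15 for all genes, and 5 members (12.5%) differed by 0.5 or more, against 9.97% of all genes.

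These 5 were IAA30, GH3.3, IAA5, IAA27 and IAA31, with differences (6-6 minus WT) of 1.09, -1.0, 0.99, 0.77 and 0.74 log2 units. IAA30 fell in WT (log2 -1.40) and was not called in 6-6, where it was at 2.12 FPKM on MS and 1.71 on NaCl. IAA5 was below 1 FPKM in every group and not called anywhere. The remaining 3 were called in 6-6 and not in WT, where the log2 ratio was 0.26 for GH3.3, 0.09 for IAA27 and -0.23 for IAA31. Whether the salt response differs between the lines was not tested for any gene, since that needs values per sample.

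**Figure D4:**
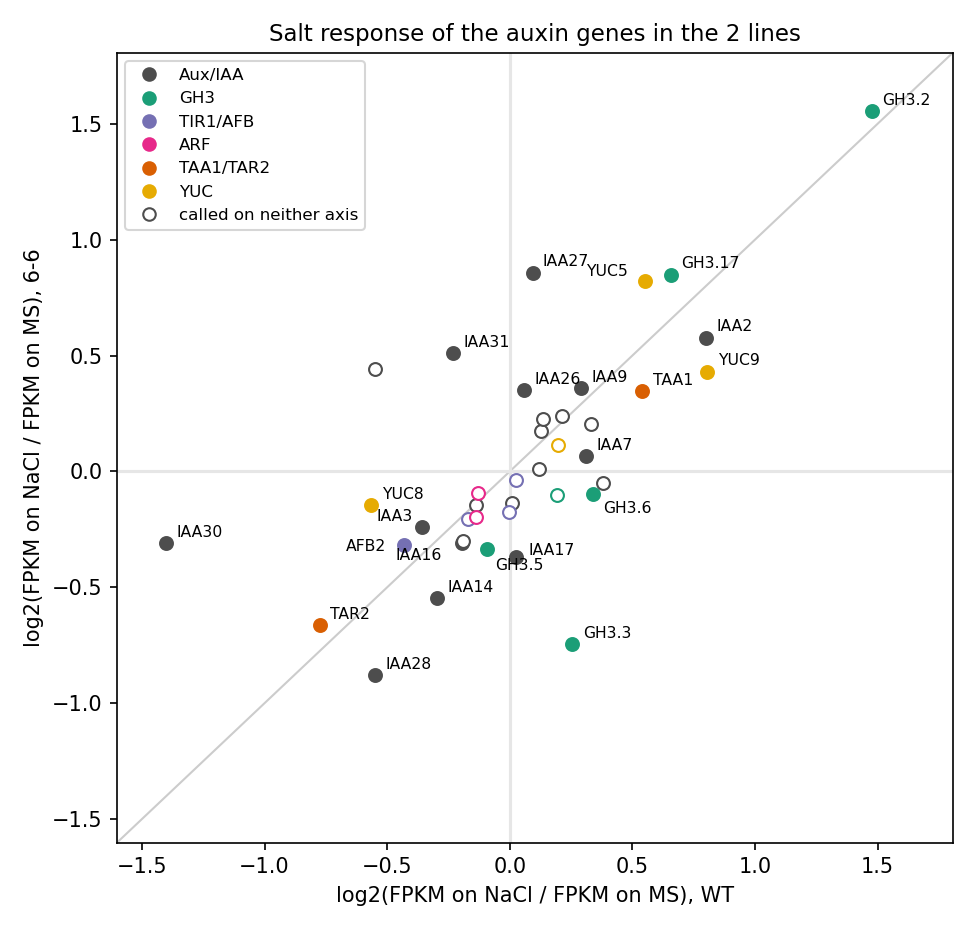
Salt response of the 40 members tested in both lines, as log2 of FPKM on NaCl over FPKM on MS, with WT on the horizontal and 6-6 on the vertical axis. The grey diagonal marks equal responses, named points are called in at least 1 line, and GH3.2 lies at the upper right at 1.48 and 1.56, while GH3.3, IAA27, IAA30 and IAA31 lie farthest from the diagonal among the named points.

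The next comparison sets 6-6 against WT on MS, without salt. Of the 42 members tested, 1 was called (2.38%), against 3.02% of 19465 genes (1.13% higher and 1.89% lower). The gene was GH3.3, at 3.45 FPKM in WT and 7.07 FPKM in 6-6 (log2 1.03, q = 0.00396 in the authors' deposited table). The same 6-6 samples on MS enter the salt table of 6-6, so this call and the fall of GH3.3 there are not independent. No Aux/IAA gene, receptor, ARF or biosynthetic gene was called. At an unadjusted p-value below 0.05 there were 5 members, including both aminotransferases, and the share of all genes at that threshold was not counted. TAA1 was at 13.9 FPKM in WT and 17.4 in 6-6 (log2 0.33, q = 0.131 in the authors' deposited table). TAR2 was at 7.88 and 5.82 FPKM (log2 -0.44, q = 0.0865 in the authors' deposited table). The median log2 ratio was -0.03 for the members and -0.07 for all genes tested.

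The last comparison sets the lines against each other on NaCl. Here 8 of the 41 members tested were called (19.5%), 5 higher and 3 lower in 6-6, against 6.71% of 19772 genes (3.04% higher and 3.67% lower). IAA27, IAA31, GH3.2, YUC5 and YUC8 were higher in 6-6, and IAA7, IAA14 and IAA17 were lower. The median log2 ratio was -0.07 for the members and -0.05 for all genes tested. This table shares its 6-6 samples with the salt table of 6-6 and its WT samples with that of WT, so its values are not independent of the salt responses above.

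Of the repressors, IAA27 was at 11.3 FPKM in WT and 17.6 in 6-6 (log2 0.63, q = 0.00186 in the authors' deposited table). IAA31 was at 4.45 and 6.95 FPKM (log2 0.64, q = 0.00826 in the authors' deposited table). IAA17 was at 189 and 137 FPKM (log2 -0.47, q = 0.00186 in the authors' deposited table). IAA27 and IAA31 were thus the less abundant repressors that were higher in 6-6, and the 3 lower ones were more abundant. IAA14 was at 31.7 and 24.4 FPKM (log2 -0.37, q = 0.0143 in the authors' deposited table). IAA7 was at 109 and 88.6 FPKM (log2 -0.30), close to the threshold at q = 0.0465 in the authors' deposited table. IAA30, at 0.806 and 1.75 FPKM (log2 1.12, q = 0.0839 in the authors' deposited table), was not called.

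In conjugation and biosynthesis, GH3.2 was at 15.7 FPKM in WT and 20.5 in 6-6 on NaCl (log2 0.39, q = 0.0187 in the authors' deposited table). YUC8 was at 4.38 and 6.14 FPKM (log2 0.49, q = 0.0152 in the authors' deposited table). YUC5 was at 4.0 and 5.84 FPKM (log2 0.55, q = 0.0371 in the authors' deposited table). GH3.3, the gene called between the lines on MS, was at 4.26 and 4.36 FPKM on NaCl (log2 0.03) and was not called there.

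**Figure D5:**
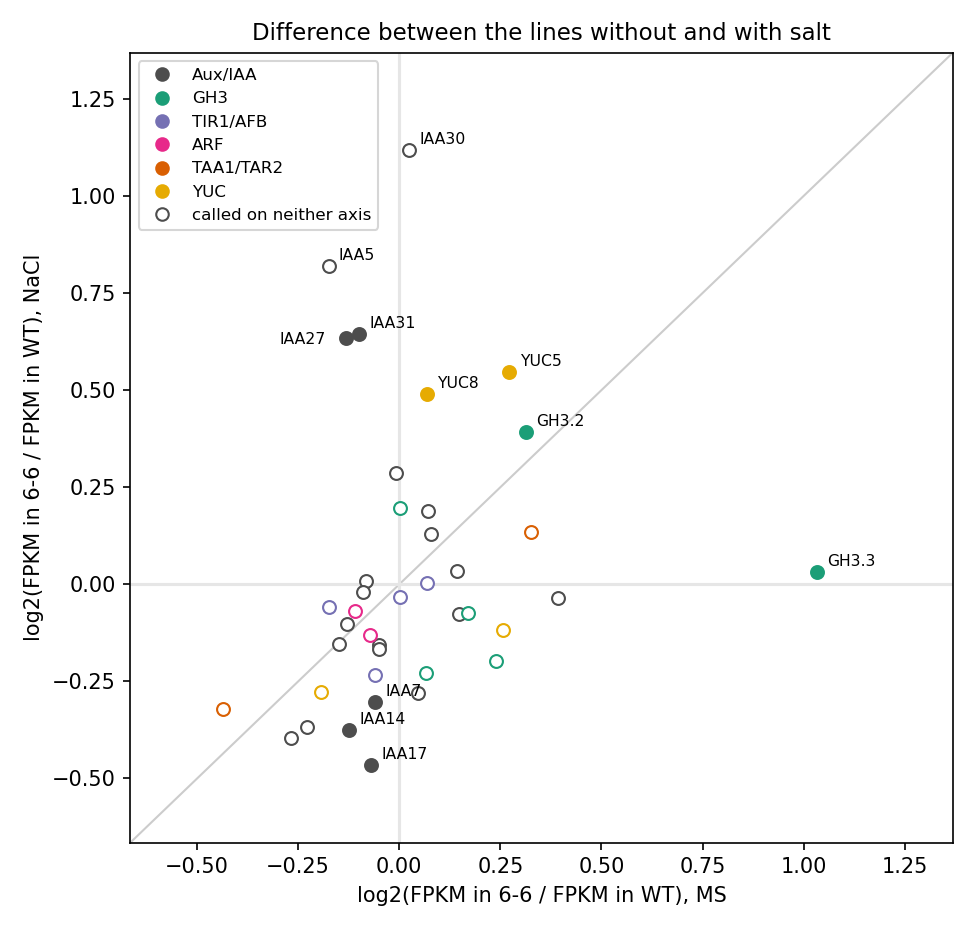
Difference between the lines, as log2 of FPKM in 6-6 over FPKM in WT, on MS (horizontal) and on NaCl (vertical), for the members tested in both tables. GH3.3 is the filled point far to the right at 1.03, and the 8 members called on NaCl lie above or below 0 on the vertical axis, GH3.2 being the farthest of them from 0 on MS at 0.31, while IAA30 and IAA5 lie highest and are open because they were not called.

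The Aux/IAA genes can also be read by relatedness and position. IAA7 and IAA14 moved in opposite directions on salt in WT (0.31 and -0.30), and both were lower in 6-6 than in WT on NaCl. Aligned to each other, their coding sequences have identical bases at 80.2% of the length of the longer one. IAA1 and IAA2 (80.2%) also differed, since IAA2 rose in both lines and IAA1 was not called, at 0.13 and 0.17. IAA20 and IAA30 (81.6%) are the closest pair without the core. Reads from such relatives could be split between them, and no source used here says how reads that match several places were counted. There were 3 pairs of neighbouring members transcribed away from each other: IAA2 and IAA7 on chromosome 3 with 12510 bases between them, IAA3 and IAA17 on chromosome 1 with 6388 bases, and IAA14 and IAA1 on chromosome 4 with 10732 bases. In WT on salt, IAA2 and IAA7 both rose. IAA3 fell and IAA17 was not called (0.03), and IAA14 fell and IAA1 was not called.

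In all, 23 of the 44 members (52.3%) were called in at least 1 table and 21 in none, against 32.7% of the 20033 genes tested in at least 1 table, and this difference was not tested. The 21 comprise 13 Aux/IAA genes, from 0.393 FPKM (IAA29) to 61.7 FPKM (IAA8) in WT on MS, with GH3.1, TIR1, AFB1, AFB3, ARF7, ARF19, YUC3 and YUC7. The closest of them to the threshold were IAA11 and IAA18 in the comparison of the lines on NaCl, at q = 0.051 and q = 0.0525 in the authors' deposited table. IAA6, IAA20, IAA29 and YUC7 were each left untested by the authors in at least 1 table, all at levels below 1 FPKM.

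A further 68 genes of auxin metabolism and signalling were followed beside the members: tryptophan synthesis, turnover and conjugate hydrolysis, the other YUC, GH3, Aux/IAA, ARF and receptor genes, the SCF machinery, corepressors and lateral root targets. In WT on salt, 12 of 54 tested were called (6 higher and 6 lower). In 6-6 on salt, 17 of 54 were called (7 higher and 10 lower). Between the lines, 0 of 54 were called on MS by the authors' q-value, with 4 at an unadjusted p-value below 0.05 and 0 by the test statistic read as a normal deviate. On NaCl, 4 of 55 were called (2 higher and 2 lower in 6-6). The shares called on salt, 22.2% in WT and 31.5% in 6-6, stand beside 21.8% and 24.1% of all genes tested, and the share of 7.27% between the lines on NaCl beside 6.71%. The median log2 ratios were 0.00 for salt in WT, 0.07 for salt in 6-6, -0.08 between the lines on MS and -0.06 on NaCl. None of the 8 SCF genes or the 5 corepressor genes was called in any of the 4 tables, with at most 1 and 2 of them at an unadjusted p-value below 0.05. Shares of all genes at that threshold were not counted.

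In WT on salt, LRP1, a lateral root primordium gene, rose from 2.53 to 5.04 FPKM (log2 1.00), and TSB1, a tryptophan synthase subunit, from 85.4 to 125 FPKM (log2 0.55). UGT74D1, an auxin glucosyltransferase, fell from 118 to 71.6 FPKM (log2 -0.72). UGT74D1 shares its locus in the tables with a second gene. AT1G14130, an oxygenase of the 2-oxoglutarate and Fe(II)-dependent family listed here under auxin turnover, fell from 23.1 to 14.7 FPKM (log2 -0.65) in WT. In 6-6 it fell from 22.3 to 14.7 FPKM (log2 -0.60). AT1G14120, of the same family, rose in 6-6 from 13.2 to 22.2 FPKM (log2 0.75) and in WT from 13.5 to 17.2 FPKM (log2 0.35). In 6-6, LRP1 rose from 3.18 to 6.55 FPKM (log2 1.04) and UGT74D1 fell from 119 to 62.9 FPKM (log2 -0.92). TSB1 also rose in 6-6, from 89.3 to 119 FPKM (log2 0.42). GATA23, a target of IAA28 in the specification of lateral root founder cells, fell in 6-6 from 7.41 to 2.81 FPKM (log2 -1.40). GATA23 was also called lower on salt in WT. On NaCl GATA23 was lower in 6-6 than in WT, at 2.88 against 5.02 FPKM (log2 -0.80, q = 0.0219 in the authors' deposited table). HAT2, an auxin-induced homeobox gene, was also lower (-0.32), while PUCHI, a lateral root transcription factor, was higher (0.61), as was AT1G14120 (0.38).

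Stricter rules kept fewer of the calls. Percentages in parentheses below are shares of all genes tested, not of the members. The members tested were 43 for salt in WT, 40 for salt in 6-6, and 42 on MS and 41 on NaCl between the lines. With the q-value below 0.01, 9 members were called in WT on salt (15.3% of all genes tested), 10 in 6-6 on salt (17.3%), 1 between the lines on MS (1.39%) and 3 on NaCl (3.74%). With a log2 ratio of at least 0.5 in size as well as a q-value below 0.05, the counts were 10 (13.3% of all genes), 10 (15.9%), 1 (1.98%) and 3 (3.69%). With the authors' test statistic read as a normal deviate and adjusted over all genes tested, they were 7 (8.44%), 7 (10.1%), 1 (0.596%) and 0 (1.04%). Calls that held under every rule were those of IAA2, IAA28, GH3.2 and GH3.17 for salt in both lines, of TAA1, TAR2 and YUC9 for salt in WT, of IAA27 and GH3.3 for salt in 6-6, and of GH3.3 between the lines on MS. Both calls of GH3.3 use the 6-6 samples on MS. All 8 calls between the lines on NaCl were lost with the statistic. This statistic does not rank genes as the authors' p-values do. Between the lines on NaCl, IAA17 had a statistic of -2.84 with p = 5e-05 by the authors' test, and IAA28 -3.11 with p = 0.0057.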

How the data were processed

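The submitters' processing notes name HISAT2, HTSeq, edgeR and TAIR10, with no versions or roles. The 4 deposited tables have the layout of Cuffdiff's gene output per the file headers. Each holds 1 FPKM value per group, made by the authors with the 3 samples combined, a signed score that the authors deposited as their test statistic, and their p-value and q-value. Per the deposited values, the q-values equal a Benjamini-Hochberg adjustment of the p-values over the genes tested, and the smallest p-value listed is 5e-05. Each table was scaled separately (members' FPKM of the same group had ratios of 0.978 to 1.02 between tables), so ratios and calls stay within a table. Levels of both lines set side by side, and differences of salt ratios, use the salt table of each line.

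Computed here with Python 3.11.15, pandas 2.3.3, scipy 1.17.1 and Biopython 1.88 were log2 ratios of group FPKM, without a pseudocount, and counts of q-values below 0.05 among genes the authors tested. A model on sample values could not be run. The adjustment was tested on simulated data. The alternatives were a q-value below 0.01, the statistic as a normal deviate, a mean FPKM of at least 1, a pseudocount of 1, centring on the median gene and a minimum log2 ratio of 0.5.

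The members and lists were chosen with earlier results of these data known. Every member called in at least 1 table is named. Of the 68 further genes, up to 4 called per comparison with the smallest p-value and a mean FPKM of at least 1 are named, and ITPK4 as a check of the line. Ties in p-value went to the larger log2 ratio in size, so some genes at the smallest p-value are not named. Sequences and gene starts come from RefSeq (TAIR10.1), with the first-numbered transcript of each gene, and 44 of 44 members matched by identifier. Gene ends in the tables equal those of RefSeq for 16.0% of 23004 protein-coding genes alone in their locus, so no coordinate from the tables is printed.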

Additional observations from a re-analysis of the deposited data

How the results depend on the processing

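With a q-value below 0.01, a minimum log2 ratio of 0.5 and the statistic as a normal deviate, in that order, the members called were 9, 10 and 7 for salt in WT, 10, 10 and 7 for salt in 6-6, and 3, 3 and 0 between the lines on NaCl. The members called in both lines in the same direction were 5, 6 and 4, and under these rules the same overlap was not counted over all genes. The count of 1 member on MS was the same under each. Among the 68 further genes, 54 were tested for salt in each line. The minimum ratio and the statistic left 6 and 5 of these in WT, beside 13.3% and 8.44% of all genes tested. In 6-6 they left 7 and 5, beside 15.9% and 10.1%. Between the lines on NaCl, 1, 2 and 0 of 55 were called in the first order, beside 3.74%, 3.69% and 1.04% of all genes. Of 43 member calls, 23, 24 and 15 were kept. A mean FPKM of at least 1, a pseudocount of 1 and centring kept all 43, and of the 6 alternatives only centring could change a sign. It did so for 11 of 166 member values, none of them called (IAA18 for salt in WT, IAA4 for salt in 6-6, and between the lines IAA4, IAA7, IAA16, IAA17, IAA26 and AFB1 on MS and IAA9, IAA10 and AFB3 on NaCl). Its shift of at most 0.07 in size is smaller than the smallest called log2 ratio, 0.29. The cause of the lost calls is the stricter rule itself, except with the statistic, where the cause was not tested. No paired analysis was possible because the tables hold 1 value per group. Leaving out a sample was not run for the same reason, and the depth, which limits the genes below 1 FPKM most, is unknown.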
